A study of Macaca mulatta with 36 samples.

Results

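Hippocampus from 5 rhesus macaques with simian immunodeficiency virus encephalitis (SIVE) was compared with hippocampus from 7 uninfected control macaques, over all probe sets and genes of the array. None of these 12 animals had received an anti-CD8 antibody, which removes the CD8+ lymphocytes that restrain the virus, and they were taken by that label from the 18 animals of the series. The remaining 6 animals, 4 with SIVE and 2 controls, were labelled as treated with it and are used below only as a second comparison. All animals were male. Those with SIVE are SIVE 5 to SIVE 9, aged 5, 2, 5, 4 and 5 years, and the controls are Control 1 to Control 7, aged 5, 6, 5, 3, 4, 8 and 5 years. Hippocampal RNA of each animal was hybridised to duplicate Affymetrix rhesus arrays, labelled technical replicates, 24 arrays for these 12 animals out of 36 in all. The duplicates were averaged, so that n counts animals. The virus strain, the time since infection and the pathology score are not given in the sources used here. No infected animal without encephalitis was among the groups, so infection and encephalitis cannot be told apart.

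SIVE is the brain inflammation of late infection, in which infected macrophages and microglia gather around vessels and form nodules with giant cells. Type I interferons released in an infected tissue signal through receptors on neighbouring cells to STAT and IRF factors, which switch on a large set of genes that block viral entry, RNA stability, translation and budding. Interferon gamma from lymphocytes switches on an overlapping set, together with genes that present antigen. The hippocampus holds the pyramidal cells and dentate granule cells that serve memory, along with astrocytes, microglia and oligodendrocytes that can respond to such signals.

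Values are RMA log2 probe set levels, so that a difference of 1 is a 2-fold change, and levels are compared between animals and never between genes. The array medians lay between 5.59 and 5.69, and duplicate arrays of an animal correlated at 0.992 to 0.997 over probe sets. RNA breakdown was gauged by the 3′ minus 5′ signal, averaged over the GAPDH, ACTB and EEF1A1 control transcripts. That signal was 0.29 ± 0.11 in SIVE (SD, n = 5) and 0.30 ± 0.06 in controls (n = 7), with an exact permutation p of 0.793, two-sided. Age was 4.20 ± 1.30 years in SIVE (SD, n = 5) and 5.14 ± 1.57 years in controls (n = 7), with an exact permutation p of 0.407, two-sided. The first principal component held 36.6% of the variance and separated the 5 SIVE animals, at 23.9 to 56.2, from the 7 controls, at -55.7 to -12.7. Control 5 stood apart from the other controls, at -55.7 on that component where the next control lay at -28.1. The neuronal genes NEUROD6 and PROX1, which mark hippocampal pyramidal and dentate granule cells, averaged 9.42 and 8.59 in controls and differed between the groups by -0.02 and 0.13, neither past the test. None of the 5 pyramidal, 6 dentate granule, 7 choroid plexus or 7 striatal and thalamic marker genes measured passed the test. The striatal and thalamic markers PENK and TCF7L2 averaged 10.91 and 9.92 in controls.

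The hippocampus of SIVE animals differed widely from that of controls, and most of what passed the test was higher. Of 52707 probe sets tested with limma at a Benjamini-Hochberg adjusted p under 0.05, 1615 (3.06%) were higher and 634 (1.2%) lower in SIVE. One probe set was then kept for each of 14132 genes, the brightest over the 12 animals. By that rule 650 genes (4.6%) were higher and 272 (1.92%) lower. Both shares are the background for each list count below, and a list with few calls can lie near them. The rises were also larger than the falls: 201 genes rose and 9 fell by at least 2-fold. The median difference was 0.69 for the genes called higher, -0.43 for those called lower and -0.03 for all genes. In 541 genes (3.83%) the lowest of the 5 SIVE levels exceeded the highest of the 7 control levels, and in 323 (2.29%) the highest SIVE level lay under the lowest control level. The counts of genes called by limma, 650 and 272, moved when 1 animal was left out, to 469 to 654 rises and 134 to 353 falls. The falls numbered between 134 and 175 without any one of Control 1, Control 2, Control 3, Control 4, SIVE 5, SIVE 7, SIVE 8 or SIVE 9.

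Genes that interferon induces led the rises. Of 33 measured interferon effectors, 28 were higher in SIVE and none lower, with a median difference of 2.58 against -0.03 for all genes, and in each of the 28 every SIVE animal lay above every control. ISG15, the ubiquitin-like protein that is joined to viral and host proteins, measured 12.29, 12.60, 12.59, 11.12 and 12.01 in SIVE 5 to SIVE 9. Its control levels ran from 6.08 to 7.13 with a median of 6.75. The difference was 5.43 ± 0.23 (SE), or 43.2-fold, with an adjusted p of 7.1e-09. HERC6, an ISG15 ligase-like protein, measured 9.85, 9.96, 9.82, 8.68 and 10.11 against controls of 5.75 to 6.41 with a median of 6.12, a difference of 3.58 ± 0.20 (adjusted p = 1.23e-07). In both genes SIVE 8 was the lowest of the 5 infected animals and still far above every control.

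IFIT3, which binds IFIT1 on foreign RNA to stop its translation, was the most even of the large rises. It measured 12.43, 12.40, 12.52, 12.05 and 12.40 in the SIVE animals against 8.10 to 8.65 in controls, with a median of 8.50. The difference of 3.89 ± 0.10 was 14.8-fold, with an adjusted p of 5.56e-11. MX1, a dynamin-like GTPase that traps viral nucleoproteins, rose from 7.20 to 8.49 in controls (median 7.74) to 12.39, 12.60, 12.40, 11.21 and 12.08, a difference of 4.44 ± 0.24 or 21.7-fold (adjusted p = 7.5e-08). Neither gene's groups overlapped, and SIVE 8 was again the lowest of the 5. IFI27, a mitochondrial interferon-induced protein, rose by 4.58 ± 0.18 (adjusted p = 3.48e-09) and IFI44 by 4.62 ± 0.25 (adjusted p = 6.07e-08). OAS2, which makes the oligoadenylates that activate RNase L, measured 8.57, 9.01, 9.17, 7.36 and 7.55 against 4.06 to 5.05 in controls with a median of 4.73. Its difference was 3.65 ± 0.29, or 12.6-fold (adjusted p = 3.4e-06), with SIVE 8 and SIVE 9 more than 1 unit below the other infected animals. PLAAT4, a phospholipase induced by interferon and retinoids, rose by 3.60 ± 0.28 (adjusted p = 2.43e-06).

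**Figure D1:**
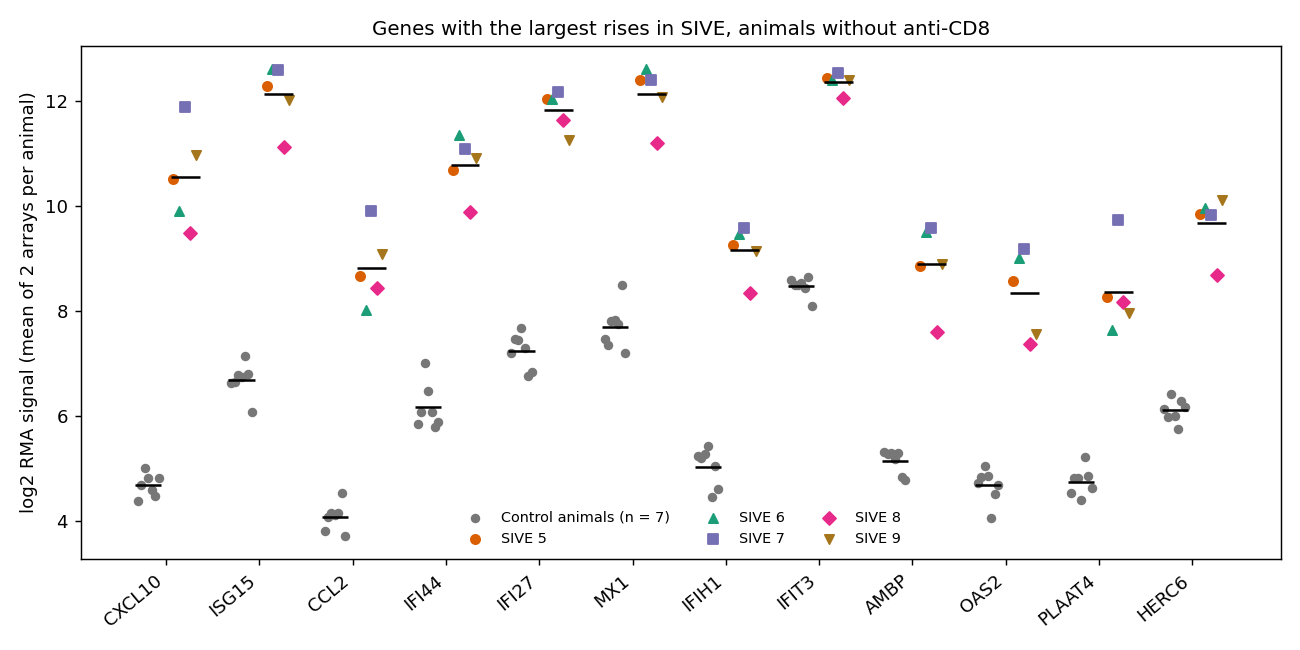
Log2 level in each animal for the genes with the largest rises, with controls (n = 7) as grey points, each SIVE animal as its own symbol and the group means as bars. In every gene shown the SIVE points lie above all control points, as for ISG15 at 11.12 to 12.60 against 6.08 to 7.13.

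The 5 interferon effectors that did not pass at their brightest probe set were OAS1, IFIT2, GBP1, GBP2 and LAMP3. OAS1 differed by 0.26 at that probe set and rose by 2.90 and 2.12 at another pair, with 0.43 and 0.07, not passed, at those remaining. IFIT2 likewise differed by 0.26 at its brightest probe set and rose by 3.82 and 3.65 at another pair, with 0.11 to 0.17, not passed, at the remaining 3. GBP1, a GTPase that attacks vacuoles of intracellular pathogens, differed by 0.18 at its brightest probe set, against rises of 0.73 to 4.70 at 5 further ones. Counting a gene by any of its probe sets, 32 of the 33 effectors rose. Over all genes, 186 that did not pass at the brightest probe set had another that was higher, and 74 another that was lower, so the choice of probe set matters for single genes. Of the 117 called genes that are named or lead a list, averaging all probe sets of the gene shrank the difference by more than 1.5 times in 30, enlarged it in 1 and reversed it in 1, and the averaged value is given below for each such gene described. PLAAT4 is among them, at 1.71 averaged.

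Of 19 measured RNA and DNA sensors and adaptors that start the response, 10 were higher and none lower (median 0.43). IFIH1, the cytosolic helicase that binds long double-stranded RNA, measured 9.26, 9.46, 9.57, 8.33 and 9.15 against 4.45 to 5.43 in controls, with a median of 5.21. The difference was 4.12 ± 0.22, or 17.4-fold, with an adjusted p of 5.08e-08, and the groups were far apart. RIGI, the helicase for short RNA with a triphosphate end, rose by 3.05 ± 0.23 (adjusted p = 1.65e-06), and TRIM25, the ubiquitin ligase that activates it, by 1.92 ± 0.12 (adjusted p = 3.07e-07; 1.10 with its probe sets averaged). IFI16, a nuclear DNA sensor, rose by 2.18 ± 0.19 (adjusted p = 1.07e-05). DDX60 differed by 0.05 at its brightest probe set and rose by 4.28 at another.

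Of 12 measured genes of interferon signalling, 6 were higher and none lower (median 0.44). IRF1, a factor induced by interferon gamma and active at antigen presentation genes, measured 7.85, 7.47, 9.24, 7.50 and 8.05 against 5.47 to 5.96 in controls with a median of 5.70. That was a rise of 2.31 ± 0.24, or 4.95-fold (adjusted p = 5.44e-05), largest in SIVE 7 and with no overlap. IRF7, the factor that amplifies type I interferon production, rose by 1.51 ± 0.26 (adjusted p = 0.0032), STAT3 by 1.20 ± 0.15 (adjusted p = 0.000225) and the receptor chain IFNAR2 by 1.20. The other IRF7 probe set differed by -0.14 and did not pass, and with probe sets averaged IRF7 was at 0.68 and IFNAR2 at 0.57. The list of 7 measured genes drawn up as restraints on the pathway held 3 that were higher. They were TRIM21, a cytosolic antibody receptor, by 1.43 ± 0.10 (adjusted p = 1.01e-06), CH25H, a cholesterol hydroxylase, by 1.51, and PTPN6 by 0.56. The PTPN6 call was lost with the spread taken from all 18 animals and with the second duplicate only. Whether these genes restrained the pathway here was not tested. SOCS1, which blocks JAK kinases, differed by -0.23 and did not pass.

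Of 14 genes of retrovirus entry and restriction 6 were higher and 1 lower (median 0.29). BST2, the tether that holds budding virions on the cell surface, measured 11.37, 11.45, 11.89, 10.79 and 10.97 against 8.05 to 8.34 in controls, with a median of 8.16. Its rise was 3.10 ± 0.15, or 8.56-fold (adjusted p = 2.44e-08), with no overlap. MX2, which blocks nuclear import of lentiviral DNA, rose by 3.07 ± 0.19 (adjusted p = 1.91e-07) and the membrane fusion inhibitor IFITM1 by 3.23 ± 0.21 (adjusted p = 3.98e-07). Probe sets of related IFITM and MAMU genes may take up transcripts of near-identical copies, so a rise of 1 member is uncertain. The gene called lower was TRIM22, another interferon-induced ligase, by -0.96 ± 0.22 (adjusted p = 0.0242), with SIVE at 8.62, 9.06, 7.59, 8.16 and 8.61 and controls at 8.83 to 9.73 with a median of 9.45. The groups overlapped through SIVE 6, the call was lost without SIVE 8, and another TRIM22 probe set rose by 2.39 ± 0.19 (adjusted p = 3.26e-06), so this gene has no settled direction here.

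Viral sequence was itself on the array. A set of 9 probe sets carries 1 shared sequence accession of a virus, taken here as SIV, and names numbered segments but no genes. In 5 of the 9 the SIVE animals were higher. Segment 9 measured 9.80, 7.53, 11.19, 10.51 and 11.22 in SIVE 5 to SIVE 9 against 3.28 to 4.25 in controls, with a median of 3.39. That was a difference of 6.55 ± 0.50, or 93.9-fold, with an adjusted p of 2.17e-06. Segment 7 measured 8.92, 7.62, 10.88, 10.22 and 10.73 against 4.07 to 5.20 in controls (median 4.74), a difference of 5.04 ± 0.46 or 32.9-fold (adjusted p = 1.44e-05). In both segments SIVE 6 was the lowest infected animal and the groups did not overlap. Segment 8 measured 8.63, 6.83, 9.57, 10.20 and 10.58 against controls of 4.54 to 4.77 with a median of 4.70, a difference of 4.48 ± 0.48 (adjusted p = 5.61e-05). One of the probe sets for segment 6 rose by 3.15 ± 0.48 (adjusted p = 0.00125) and the other differed by 0.10. Segment 1 rose by 1.68 ± 0.41 (adjusted p = 0.0349), a call that was lost without any one of Control 1, Control 2, Control 3, Control 4, Control 6, Control 7 or SIVE 9. Segments 2, 3 and 4 differed by 0.44, 0.20 and 0.20 and did not pass. Of 674 other probe sets named by an accession of this kind, none was higher and 2 were lower by limma at an adjusted p under 0.05. Of these 674, 82 were past an unadjusted p of 0.05, as were 10745 of all 52707 probe sets tested.

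The order of the 5 animals by viral signal was not their order by interferon response. Over the 5 called viral probe sets, SIVE 6 was lowest in all 5, with a mean difference from the control mean of 2.10, against 3.71 in SIVE 5, 5.35 in SIVE 7, 4.51 in SIVE 8 and 5.24 in SIVE 9. Over the 28 called interferon effectors, SIVE 8 was lowest in 24, with a mean difference of 2.25, and SIVE 6 had the next to highest mean, 3.14, after 3.35 in SIVE 7. SIVE 5 and SIVE 9 lay between, at 2.95 and 2.82. SIVE 7 was the highest animal in 18 of the 28 effectors and SIVE 6 in 7. With 5 animals no correlation is given.

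**Figure D2:**
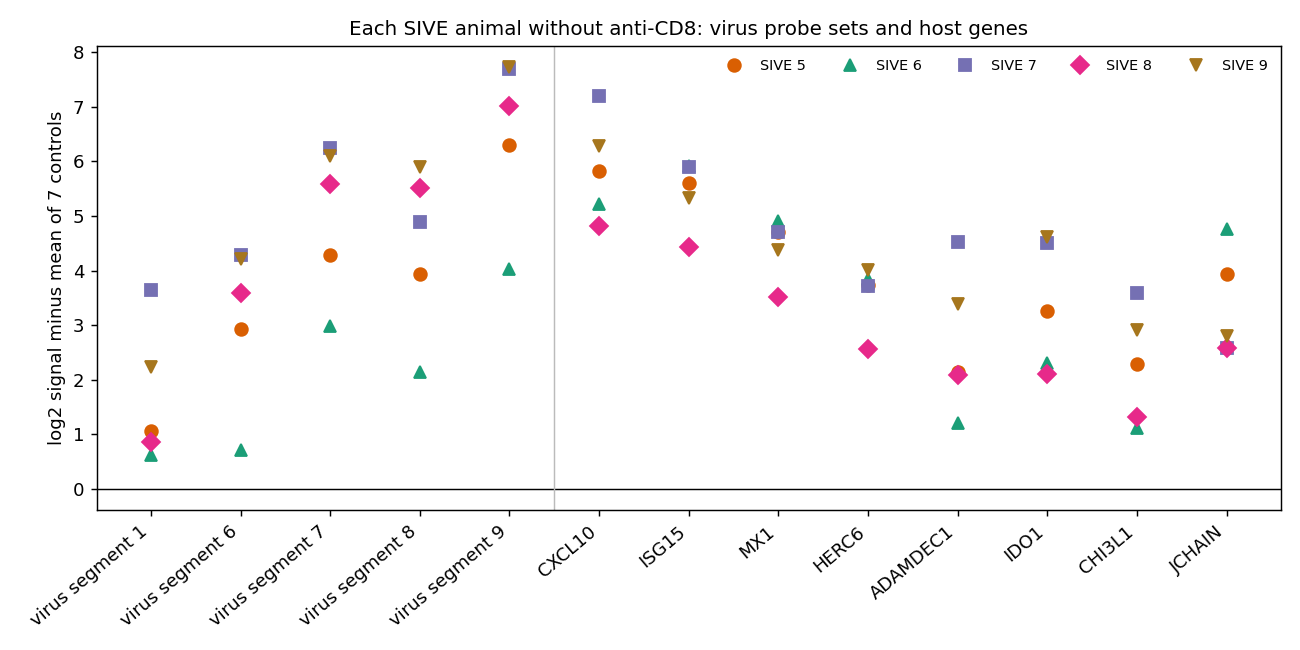
Log2 signal of each of the 5 SIVE animals minus the mean of the 7 controls, for the 5 called viral probe sets (left of the line) and 8 host genes (right), 1 symbol per animal. SIVE 6 is lowest for each viral probe set and highest for JCHAIN, and SIVE 8 is lowest for CXCL10, ISG15, MX1 and HERC6.

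Chemokines, the proteins that draw leukocytes into tissue, held the largest rise of any named macaque gene. CXCL10, the ligand of CXCR3 on activated T cells, measured 10.51, 9.90, 11.87, 9.49 and 10.97 in SIVE 5 to SIVE 9. Controls lay at 4.38 to 5.00 with a median of 4.68. The difference of 5.87 ± 0.31 was 58.3-fold, with an adjusted p of 5.2e-08. CCL2, which draws monocytes through CCR2, measured 8.66, 8.03, 9.89, 8.43 and 9.09 against 3.72 to 4.53 in controls (median 4.11), a difference of 4.74 ± 0.25 (adjusted p = 5.2e-08). SIVE 7 was the highest animal in both genes, and no SIVE animal came within 3 units of a control. Of 18 measured chemokines 7 were higher and none lower (median 0.33). That count was 4 to 6 in the 12 fits that left out 1 animal, and 4 without Control 4 or without SIVE 7. CCL3, a monocyte and T cell attractant, rose by 1.99 ± 0.25 (adjusted p = 0.000234), though it has near-identical copies and was at 0.80 with its probe sets averaged. CXCL9 differed by 0.44 and did not pass (adjusted p = 0.06), and CXCL11 differed by 0.12 at its brightest probe set and rose by 3.55 at another. CCL8 differed by 0.34 at its brightest probe set and rose by 4.38 and 3.95 at the others.

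Among the receptors, 2 of 9 rose. These were ACKR1, a scavenger on venular endothelium and red cells, by 1.24 ± 0.12 (adjusted p = 2.69e-05; 0.47 with its probe sets averaged), and ACKR3, a scavenger of CXCL12, by 0.62. Of 19 cytokines 5 were higher and none lower (median 0.07). TNFSF13B, the B cell survival factor BAFF, measured 8.80, 8.81, 9.65, 8.13 and 9.01 against 5.92 to 7.18 in controls with a median of 6.84, a rise of 2.12 ± 0.24 or 4.33-fold (adjusted p = 9.54e-05) with no overlap. SPP1, or osteopontin, rose by 1.30, IL15, a growth factor for memory CD8+ and natural killer cells, by 1.25 and IL1B by 0.90. IL10 differed by -0.53 and did not pass.

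Antigen presentation rose along both of its routes. For class I, which shows peptides made inside the cell to CD8+ T cells, 11 of 14 measured genes were higher and none lower, with a median of 1.13. TAP1, a subunit of the pump that brings peptides into the endoplasmic reticulum, measured 9.35, 9.41, 10.39, 9.02 and 9.59 against 6.18 to 6.76 in controls, with a median of 6.41. The rise was 3.10 ± 0.18, or 8.59-fold (adjusted p = 1.59e-07). NLRC5, the transactivator of class I genes, rose by 3.04 ± 0.19 (adjusted p = 2.43e-07) from controls of 5.08 to 5.46. B2M, the light chain of every class I molecule, reached nearly the same level in each infected animal, at 13.17, 13.07, 13.25, 13.17 and 13.17, against 11.40 to 11.91 in controls with a median of 11.72 (adjusted p = 3.36e-07 for a rise of 1.48 ± 0.09). Both TAP1 and B2M were free of overlap, with TAP1 highest in SIVE 7. The aminopeptidase ERAP1, which trims the peptides, rose by 1.17.

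The proteasome divided by subunit type. PSMB8, a catalytic subunit that interferon puts in place of a constitutive one, measured 8.56, 8.77, 9.90, 7.98 and 9.28 against 5.29 to 6.04 in controls, with a median of 5.69. It rose by 3.19 ± 0.26, or 9.11-fold (adjusted p = 3.35e-06), and PSME2, a subunit of the proteasome activator PA28, by 1.88 (0.97 with its probe sets averaged). Of 3 immunoproteasome and activator genes 2 were higher at their brightest probe set, with a median of 1.88. Of 13 constitutive subunits 3 were higher, PSMA3, PSMA2 and PSMB2, by 0.43, 0.39 and 0.30, with a median of 0.15 over the 13. PSMB2 (adjusted p = 0.045) lost its call in 9 of the 12 fits that left out 1 animal. With probe sets averaged, PSMA2 was at 0.22 and PSMB2 at 0.05, neither past the test.

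For class II, which shows engulfed antigen to CD4+ T cells, 7 of 11 measured genes were higher and none lower (median 1.16). CD74, the invariant chain, measured 10.06, 9.11, 10.13, 9.76 and 9.31 against 6.80 to 8.11 in controls with a median of 7.85. That was a rise of 2.04 ± 0.25, or 4.12-fold (adjusted p = 0.000246), with no overlap. MAMU-DRA, the macaque DR alpha chain, rose by 2.71 ± 0.35 (adjusted p = 0.000334), MAMU-DQA1 by 1.49 and IFI30, a lysosomal reductase for antigens, by 2.33.

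Of 17 measured complement genes 8 were higher and 1 lower (median 0.62). C1S, the protease of the C1 complex, measured 9.27, 8.78, 9.84, 9.07 and 9.51 against 5.65 to 6.81 in controls with a median of 6.32. It rose by 2.96 ± 0.19, or 7.78-fold (adjusted p = 3.98e-07). C1QA, a chain of the recognition unit made in brain chiefly by microglia, measured 10.72, 10.66, 11.15, 10.41 and 10.80 against 7.66 to 9.25, with a median of 8.70, a rise of 2.13 ± 0.22 (adjusted p = 3.54e-05). Neither gene's groups overlapped. The other C1QA probe set differed by -0.03 and did not pass, and the average was 1.05. C1QC rose by 1.90 and SERPING1, the C1 inhibitor, by 2.00. The gene that fell was CFD, the protease of the alternative pathway, at 7.39, 6.95, 7.55, 6.62 and 6.93 in SIVE against 8.00 to 8.55 in controls with a median of 8.09, a difference of -1.11 ± 0.15 (adjusted p = 0.000565).

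IDO1, which starts tryptophan breakdown, measured 8.52, 7.56, 9.77, 7.37 and 9.87 against 5.03 to 5.49 in controls, with a median of 5.20. Its rise was 3.36 ± 0.38 (adjusted p = 0.000101), with SIVE 7 and SIVE 9 more than 2 units above SIVE 6 and SIVE 8. GCH1, which starts tetrahydrobiopterin synthesis, rose by 1.79 ± 0.21 (adjusted p = 0.000168) and the tryptophanyl tRNA synthetase WARS1 by 1.16. These were among 4 of 17 genes of tryptophan, pterin and polyamine metabolism called higher (median 0.06). Of 19 genes of iron, metals and oxidative stress, 8 were higher and 1 lower (median 0.25). SOD2, the mitochondrial superoxide dismutase, measured 9.91, 8.62, 10.72, 9.12 and 10.68 against 6.88 to 7.22 with a median of 7.13, a rise of 2.74 ± 0.30 (adjusted p = 8.06e-05), with SIVE 6 lowest and no overlap. CYBB, the phagocyte oxidase catalytic chain, rose by 1.95 ± 0.18 (adjusted p = 1.59e-05) and HAMP, the iron hormone hepcidin, by 1.35 ± 0.15 (adjusted p = 0.000108). The other SOD2 probe set differed by 0.25 and did not pass, and with probe sets averaged SOD2 was at 1.495 and CYBB at 1.04.

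Of 20 cell death genes 7 were higher and none lower (median 0.21). They included XAF1, an interferon-induced antagonist of the inhibitor XIAP, by 3.37 ± 0.21 (adjusted p = 3.26e-07), MLKL, the pore-forming executioner of necroptosis, by 1.78 ± 0.15 (adjusted p = 6.75e-06), BIRC3 by 1.42 and the death receptor FAS by 1.06. With probe sets averaged BIRC3 was at 0.72 and FAS at 0.55. Of 14 NF-kB pathway genes 1 was higher, where 4.6% of all genes were. It was NFKB1, by 0.57 (adjusted p = 0.0309), a call lost in 6 of the 12 fits that left out 1 animal and with its probe sets averaged (0.22). Counting a gene by any of its probe sets, 3 of the 14 were higher, and with probe sets averaged 2 were. NFKBIA and ICAM1, also in that list, differed by -0.19 and 0.22 and did not pass. Of 17 heat shock and unfolded protein genes 3 were higher, among them the co-chaperone BAG3 by 1.08 ± 0.09 (adjusted p = 4.65e-06) and HSPB8 by 1.25 ± 0.13 (adjusted p = 6.03e-05; 0.75 with its probe sets averaged). Of 21 cell cycle genes 7 were higher and 1 lower (median 0.34), with TYMS, which makes thymidylate, up by 0.75 and the helicase subunit MCM3 by 0.79. None of 11 ribosomal protein genes, 16 respiratory chain genes or 11 cholesterol synthesis genes passed.

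Genes of macrophages and monocytes rose while those of resting microglia did not pass. Of 16 macrophage and monocyte genes 8 were higher and none lower (median 0.68), and their mean level was 6.94 to 7.64 in SIVE against 6.33 to 6.64 in controls. In bulk tissue a change in the number of cells of a type and a change in RNA per cell cannot be told apart. LYZ, or lysozyme, measured 7.36, 7.55, 9.10, 7.68 and 8.89 against 4.81 to 5.71 in controls with a median of 5.14, a rise of 2.88 ± 0.30 or 7.39-fold (adjusted p = 4.61e-05). SIGLEC1, a sialic acid receptor of interferon-exposed macrophages, was even over the 5 animals, at 7.72, 7.83, 7.73, 7.54 and 7.76 against 6.61 to 7.01 with a median of 6.85, a rise of 0.93 ± 0.09 (adjusted p = 1.64e-05). Neither overlapped with controls. VSIG4, a complement receptor of tissue macrophages, rose by 2.15 ± 0.28 (adjusted p = 0.000392) and PTPRC, the leukocyte antigen CD45, by 1.68 ± 0.19 (adjusted p = 9.28e-05). CD68 differed by 0.03 at its brightest probe set and rose by 1.07 at another. ADAMDEC1, a protease of mature macrophages, was among the most uneven rises, at 6.01, 5.08, 8.39, 5.97 and 7.27 against 3.59 to 4.03 with a median of 3.91 (2.67 ± 0.41, adjusted p = 0.0016).

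None of 7 homeostatic microglia genes passed, with a median difference of -0.03. P2RY12, the purine receptor of resting microglia, measured 7.90, 8.69, 7.05, 5.74 and 7.16 in SIVE against 7.63 to 8.42 in controls, with a median of 7.98. Its spread over the infected animals was 1.09 (SD, n = 5) against 0.33 in controls (n = 7), and the difference of -0.71 ± 0.37 had an adjusted p of 0.297. SIVE 8 had the lowest level and SIVE 6 a higher one than any control. SLC2A5, with the smallest adjusted p of the 7 genes, differed by 0.77 (adjusted p = 0.072). CX3CR1 differed by -0.26, GPR34 by -0.38, AIF1 by 0.50 and CSF1R by 0.17, and none of these genes passed the test.

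Lymphocyte genes moved little, apart from 2. None of 5 T cell genes passed, with differences from -0.20 to -0.01 and mean levels of 5.01 to 5.08 in SIVE against 4.97 to 5.50 in controls. CD3 genes were not analysed here. Of 11 genes of CD8+ and cytotoxic lymphocytes 1 was higher, GZMB, the granule protease granzyme B. It measured 7.32, 6.28, 8.32, 5.86 and 7.31 against 4.55 to 5.43 in controls with a median of 4.64, a rise of 2.25 ± 0.33 (adjusted p = 0.00103) with no overlap. Of 7 B and plasma cell genes 1 was higher, JCHAIN, which joins polymeric antibodies, at 7.96, 8.79, 6.62, 6.61 and 6.84 against 3.67 to 4.36 with a median of 4.04 (3.33 ± 0.32, adjusted p = 2.15e-05). SIVE 5 and SIVE 6, not SIVE 7, were the high animals for JCHAIN, which was at 1.68 with its probe sets averaged. The B cell genes MS4A1 and CD79A differed by 0.34 and -0.21 and did not pass, nor did any of 6 granulocyte genes.

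Among astrocyte genes, those of the reactive state rose and those of the resting state largely did not pass. Of 16 reactive astrocyte genes 8 were higher and none lower (median 0.83), with a mean level of 8.32 to 9.13 in SIVE against 7.77 to 7.97 in controls. CHI3L1, a chitinase-like glycoprotein, measured 8.75, 7.60, 10.06, 7.78 and 9.38 against 6.24 to 6.81 in controls with a median of 6.45, a rise of 2.24 ± 0.34 (adjusted p = 0.00134). OSMR, the oncostatin M receptor, measured 8.99, 8.83, 9.21, 8.76 and 9.16 against 7.23 to 7.81 with a median of 7.54, a rise of 1.48 ± 0.11 (adjusted p = 2.22e-06). SIVE 7 was the highest animal in 7 of the 8 genes. The hyaluronan receptor CD44 rose by 1.34. GFAP, the astrocyte intermediate filament, differed by 0.36 ± 0.10 (adjusted p = 0.061) and VIM by 0.78 ± 0.21 (adjusted p = 0.0598), both short of the threshold. SERPINA3, an acute phase protease inhibitor, differed by 0.07 at its brightest probe set and rose by 0.87, 4.19 and 4.61 at 3 others, with 0.06, not passed, at the last. OSMR was at 0.98 with its probe sets averaged.

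Of 10 further astrocyte genes 1 fell and none rose at the brightest probe set, where 1.92% of all genes fell and 4.6% rose. SLC1A2, the main glutamate transporter of astrocytes, measured 11.36, 11.81, 11.11, 11.41 and 11.61 against 11.91 to 12.24 in controls with a median of 12.20, a difference of -0.64 ± 0.11 or 1.56-fold (adjusted p = 0.00424). Every SIVE animal lay below every control. The other glial glutamate transporter, SLC1A3, differed by 0.18 and did not pass at its brightest probe set. With its probe sets averaged SLC1A3 rose by 0.30 and passed (adjusted p = 0.0168). Of 18 endothelial genes 3 rose: VCAM1, which lets leukocytes adhere, by 2.77 ± 0.23 (adjusted p = 4.88e-06), VWF by 0.90 and PECAM1 by 0.72. The calls of VWF and PECAM1 were lost with the spread taken from all 18 animals, and the other VWF probe set differed by 0.0041, for an average of 0.45. VCAM1 measured 9.80, 9.80, 10.13, 8.86 and 9.50 against 6.08 to 7.26 with a median of 6.84, free of overlap. Of 24 matrix genes and proteases 2 were higher, FN1 by 1.03 ± 0.14 (adjusted p = 0.000456) and TNC by 0.90, and 1 was lower, the brain proteoglycan BCAN, by -0.60 ± 0.11 (adjusted p = 0.00593). Over all genes 4.6% were higher and 1.92% lower. The other FN1 probe set differed by -0.20 and did not pass, and the average was 0.42.

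**Figure D3:**
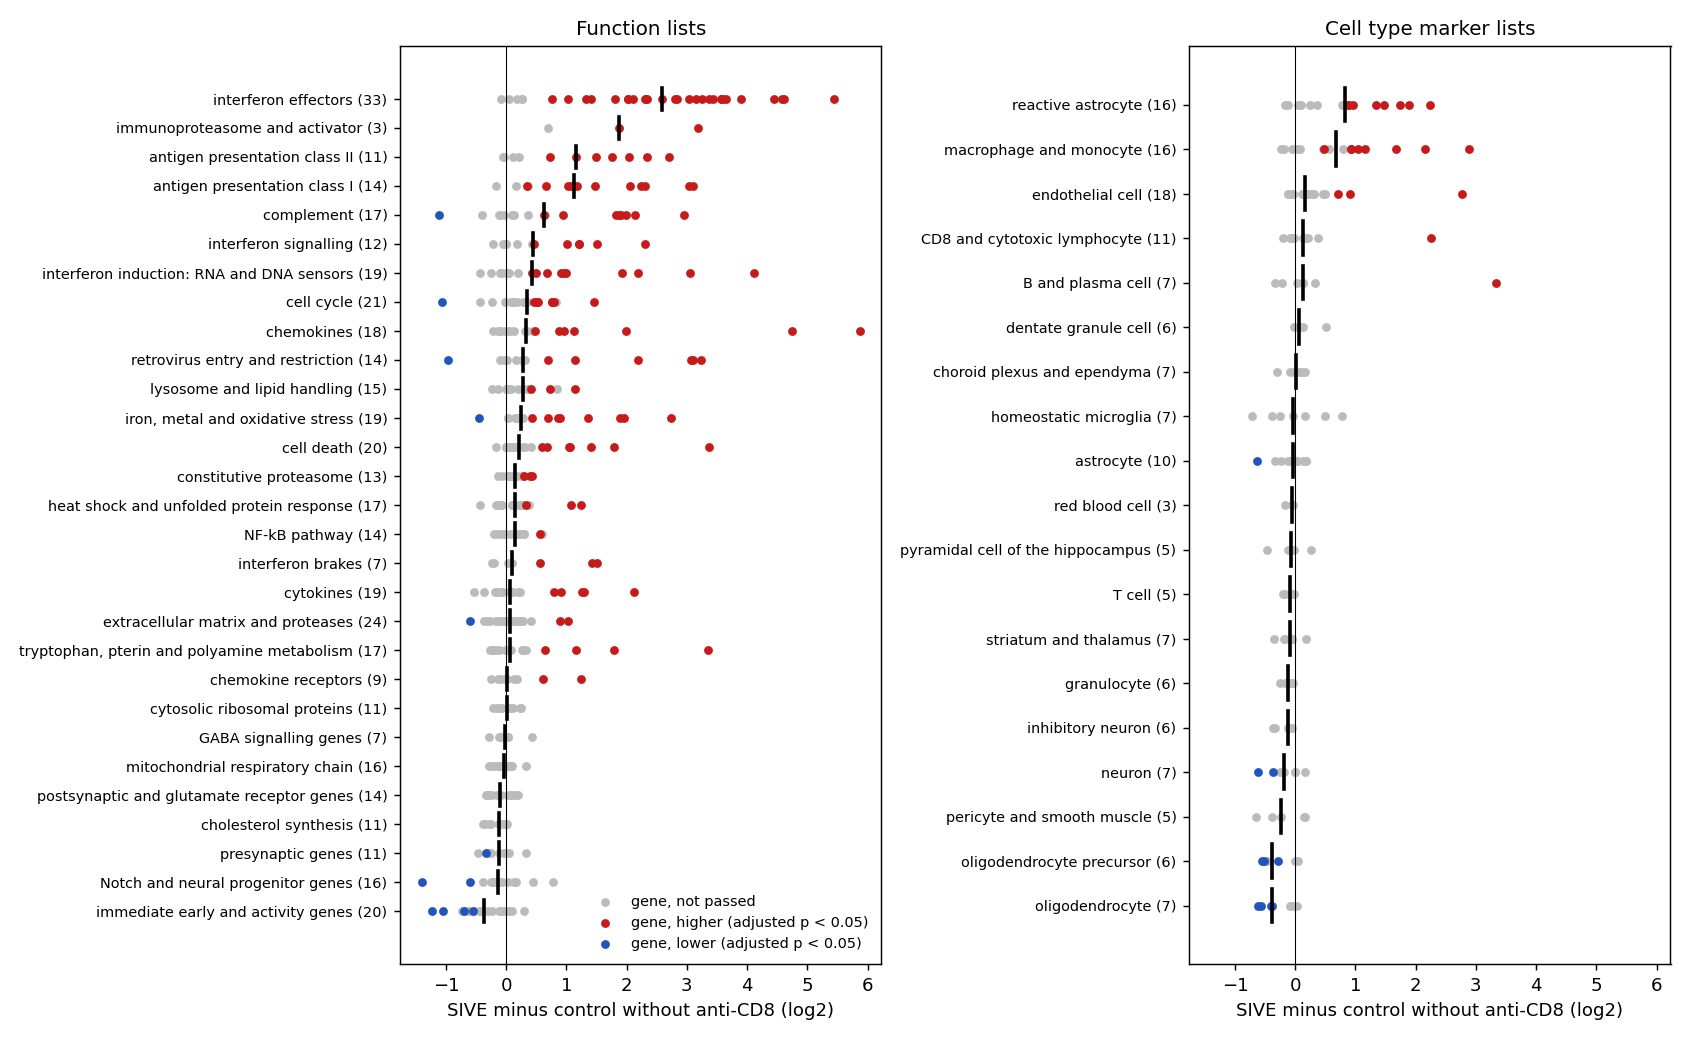
Difference between the group means, in log2 units, for each measured gene of each list, with genes that passed the limma test marked and the list median as a bar. Interferon effectors stand at a median of 2.58, while immediate early genes and oligodendrocyte genes lie below 0, at -0.36 and -0.39.

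AMBP, the precursor of a plasma protease inhibitor made mainly in liver, measured 8.85, 9.51, 9.59, 7.59 and 8.90 against 4.78 to 5.31 in controls, with a median of 5.27. The rise was 3.75 ± 0.27 (adjusted p = 1.29e-06) with no overlap, while its other probe set differed by -0.11 (adjusted p = 0.491), for an average of 1.82. CP, or ceruloplasmin, rose by 1.88 ± 0.40 (adjusted p = 0.0149), carried by SIVE 7 at 9.28 and SIVE 9 at 7.84 over 7.03, 6.95 and 6.31 in SIVE 6, SIVE 5 and SIVE 8, against controls of 4.86 to 6.18, and was at 1.22 with its probe sets averaged. CRP, the plasma acute phase protein, went the other way at its brightest probe set, by -0.97 ± 0.13 (adjusted p = 0.000435), with other probe sets at -0.45 and 0.07 and an average of -0.45.

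The falls were smaller. By the brightest probe set the largest among named genes was that of HES5, a Notch target that keeps neural progenitors from becoming neurons. It measured 6.80, 6.93, 6.30, 6.50 and 6.13 in SIVE 5 to SIVE 9 against 7.74 to 8.14 in controls, with a median of 8.01. The difference was -1.40 ± 0.13, or 2.63-fold lower, with an adjusted p of 1.93e-05 and no overlap. Its other probe set differed by -0.18 and did not pass, for an average of -0.79. SELPLG, the P-selectin ligand of leukocytes and microglia, measured 7.46, 7.13, 6.57, 6.17 and 6.44 against 7.64 to 8.17 with a median of 7.89 (-1.17 ± 0.19, adjusted p = 0.00194). CLSPN, a replication checkpoint protein, measured 8.25, 8.70, 8.85, 8.46 and 8.33 against 9.30 to 9.92 with a median of 9.62 (-1.07 ± 0.12, adjusted p = 8.67e-05), though another CLSPN probe set differed by 0.18, for an average of -0.44. Groups were apart in all 3 genes. PAQR6, a membrane progesterone receptor, fell by 1.11 on the log2 scale (adjusted p = 0.00098), with another probe set at 0.27 and an average of -0.42. IGSF1, an immunoglobulin family membrane protein, fell by 1.02 (adjusted p = 0.000789). CA10, a carbonic anhydrase-like synaptic ligand, fell by 0.96 (adjusted p = 0.00217) with overlapping groups, and its average was -0.39. TNNT1, slow skeletal troponin T, fell by 1.01 (adjusted p = 0.0178), a call that was lost without SIVE 5.

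**Figure D4:**
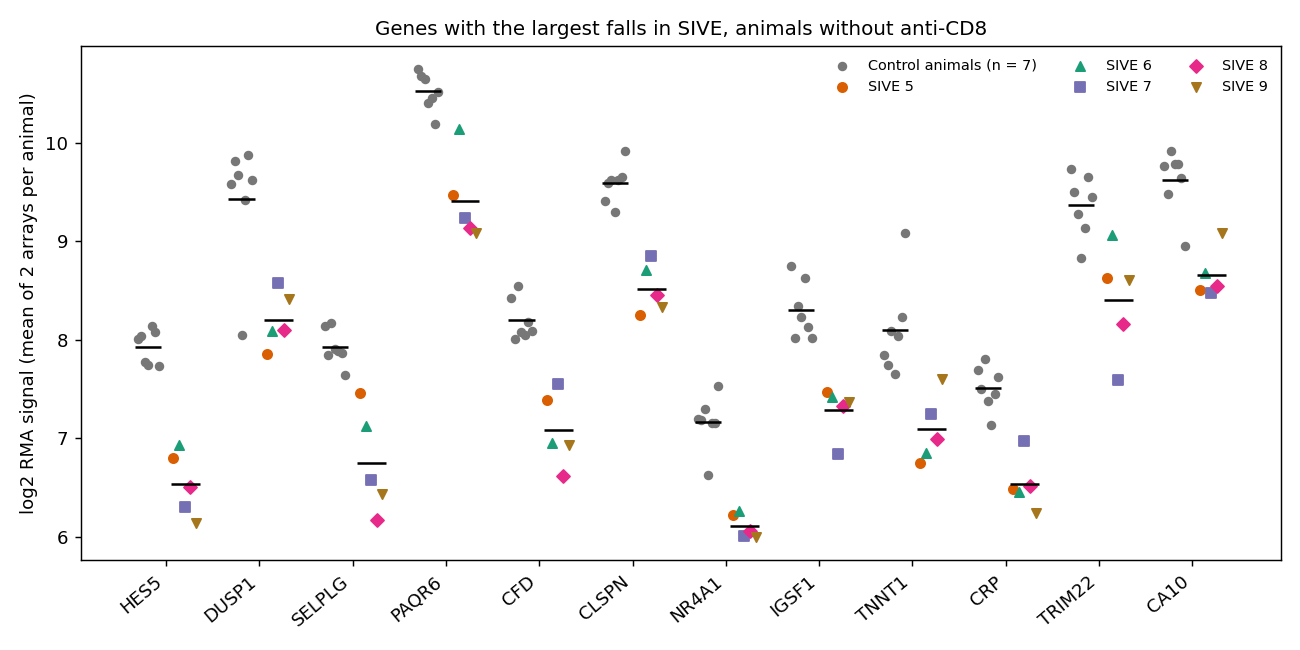
Log2 level in each animal for the genes with the largest falls, with controls (n = 7) as grey points, each SIVE animal as its own symbol and the group means as bars. HES5 is free of overlap at 6.13 to 6.93 in SIVE against 7.74 to 8.14, while DUSP1, TRIM22 and CA10 overlap.

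Genes that neurons switch on within minutes of activity were lower as far as they passed. Of 20 immediate early and activity genes 4 were lower and none higher (median -0.36 against -0.03 for all genes). NR4A1, a nuclear receptor induced by activity, measured 6.22, 6.26, 6.00, 6.06 and 6.00 against 6.63 to 7.53 in controls with a median of 7.19. Its difference was -1.05 ± 0.12 (adjusted p = 0.000118) with no overlap, and another NR4A1 probe set fell by 2.26, more than HES5 did, for an average of -1.66. ARC, a synaptic protein of plasticity, measured 7.35, 7.77, 7.58, 7.27 and 6.79 against 7.75 to 8.27 with a median of 8.13 (-0.70 ± 0.15, adjusted p = 0.0157), SIVE 6 overlapping the lowest control. DUSP1, a phosphatase that ends MAP kinase signals, measured 7.85, 8.08, 8.57, 8.10 and 8.42 against 8.05 to 9.87 with a median of 9.62 (-1.23 ± 0.26, adjusted p = 0.0166). Control 4, at 8.05, was the one control among the SIVE values. NPAS4, a neuronal activity factor, fell by 0.55 (adjusted p = 0.0475) and lost its call in 8 of the 12 fits that left out 1 animal. Without SIVE 5 the list held 2 calls, since those of DUSP1 and NPAS4 were lost. FOS and VGF differed by -0.74 (adjusted p = 0.255) and -0.63 (adjusted p = 0.0717) and did not pass.

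Myelin and oligodendrocyte genes were slightly lower. Of 7 oligodendrocyte genes 4 were lower and none higher (median -0.39), and 3 of 6 precursor genes were lower (median -0.38). MBP, the myelin basic protein, measured 12.64, 12.85, 12.76, 12.83 and 12.84 against 12.97 to 13.30 in controls with a median of 13.21 (-0.39 ± 0.07, adjusted p = 0.00626). MAL, a myelin lipid raft protein, measured 8.66, 8.54, 8.71, 8.86 and 8.80 against 9.05 to 9.78 with a median of 9.25 (-0.63 ± 0.14, adjusted p = 0.0172). OLIG2, the lineage factor, fell by 0.55 (adjusted p = 0.00319). All 3 were free of overlap at the brightest probe set. The other OLIG2 probe set differed by -0.48 and did not pass (adjusted p = 0.0866). The calls of GJB1 (-0.39) and UGT8 (-0.57) were each lost in 9 of the 12 fits that left out 1 animal, so that 2 of the 7 genes were called without any one of Control 1, Control 2, Control 3, Control 4, Control 7, SIVE 5, SIVE 8 or SIVE 9. SOX10 (-0.52) and CSPG4 (-0.29) were lost without SIVE 8 or without SIVE 9, which left 1 precursor gene called, and CSPG4 was at -0.16, not passed, with its probe sets averaged. With the spread taken from all 18 animals, 1 gene of each list was called, MBP and CSPG4. The calls of MAL and OLIG2 were among those lost.

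Neuronal genes as a group showed little. Of 7 neuron genes 2 were lower (median -0.18), GAP43 by -0.37 and TUBB3 by -0.61, and their mean level of 10.38 to 10.56 in SIVE overlapped 10.46 to 10.85 in controls. Both calls (adjusted p = 0.0387 and 0.0395) were lost in at least 8 of the 12 fits that left out 1 animal and with probe sets averaged. Of 11 presynaptic genes 1 was lower, where 1.92% of all genes were. It was the vesicle protein SV2A, by -0.33 ± 0.07 (adjusted p = 0.0216), a call lost without SIVE 7, SIVE 8 or SIVE 9. None of 14 postsynaptic, 7 GABA signalling or 6 inhibitory neuron genes passed, and GAD1, the GABA-making enzyme, differed by -0.12. Of 16 Notch and progenitor genes 2 were lower, HES5 and SOX11, the latter by -0.59 (adjusted p = 0.0285) and lost without any one of Control 3, Control 4, Control 6, Control 7, SIVE 5, SIVE 7 or SIVE 8, and with its probe sets averaged (-0.37).

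Across all called genes the 5 infected animals kept different orders for rises and falls. SIVE 7 was the highest animal in 367 of the 650 genes that rose, and SIVE 8 the lowest in 340 and SIVE 6 in 159. Among the 272 genes that fell, SIVE 9 was the lowest in 163 and SIVE 6 the highest in 126. The mean difference from the control mean over the rises was 1.01, 0.95, 1.29, 0.75 and 1.04 in SIVE 5 to SIVE 9, and over the falls -0.42, -0.34, -0.46, -0.52 and -0.64. The animal with the smallest mean rise, SIVE 8, thus had the next to largest mean fall.

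The anti-CD8-treated animals gave a second comparison with none of the same animals, 4 with SIVE against 2 controls, in a fit over all 18 animals. In it 445 probe sets were higher and 110 lower. The balance rested on single animals: without Control 5, an untreated animal that enters only the estimate of the spread, 677 were higher and 984 lower, and without Control 9 416 were higher and 350 lower. The lower count fell to 70 without Control 2, 71 without SIVE 5, 42 without SIVE 1, 45 without SIVE 3 and 25 without SIVE 4. Of the 650 genes that rose without the antibody, 642 (98.8%) also differed upward in the treated animals, where 46.6% of all genes did, and 180 passed the test there, with a median of 0.70. Of the 272 that fell, 261 (96%) also differed downward, where 53.4% of all genes did, and 2 passed, with a median of -0.24. SIVE 2, SIVE 3 and Control 8 of the treated animals had a higher 3′ minus 5′ signal than any untreated animal, at 1.19, 0.96 and 1.45. Without these 3 animals, 640 of the rises (98.5%, with 56.1% of all genes upward) and 167 of the falls (61.4%, with 43.9% of all genes downward) kept their direction, and 73 and 0 passed. These counts rest on the 3 treated animals that were left.

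**Figure D5:**
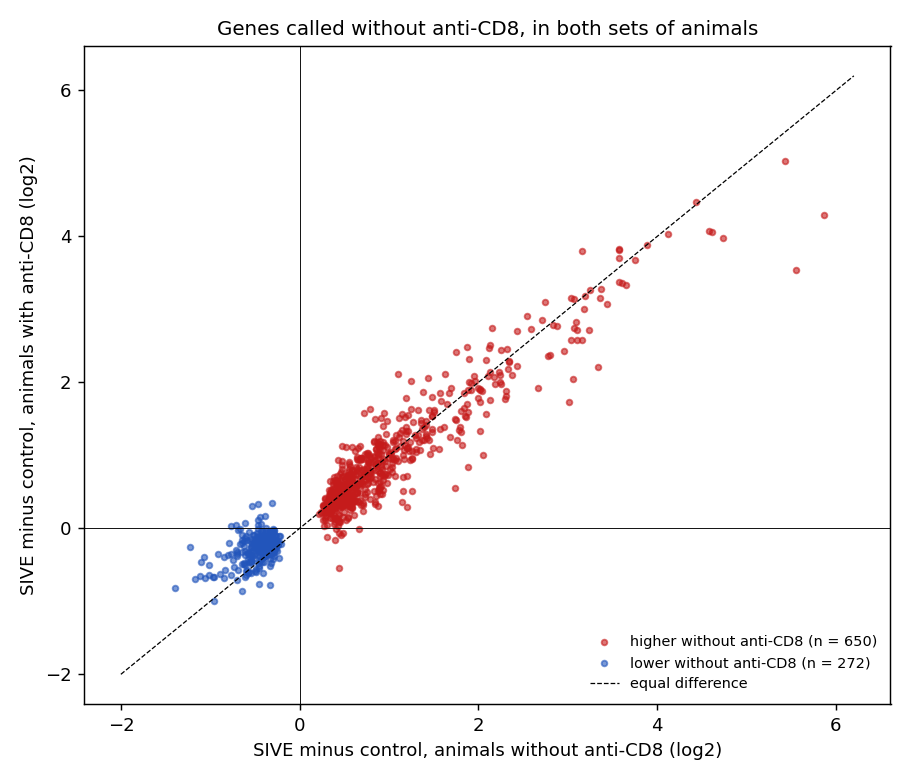
Difference between SIVE and control means in treated animals (vertical) against untreated animals (horizontal), in log2 units, 1 point per gene called in the untreated comparison. Of the 650 rises 642 lie above 0 on the vertical axis, and the 272 falls cluster nearer to it at a median of -0.24.

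The difference between the untreated and treated contrasts was tested as an interaction. No probe set passed by limma with Benjamini-Hochberg adjustment, and 1481 (2.81%) had an unadjusted p under 0.05. The median SE of a gene's interaction was 0.20. For CXCL10 the untreated difference exceeded the treated one by 1.57 ± 0.56 (unadjusted limma p = 0.0122), and for CLSPN the untreated difference minus the treated one was -0.68 ± 0.23 (unadjusted limma p = 0.00809). Neither passed after adjustment. The called interferon effectors numbered 28 in both comparisons, with list medians of 2.58 untreated and 2.45 treated. The immediate early list had a median of -0.36 untreated and -0.05 treated, and the oligodendrocyte list -0.39 and 0.00, with no gene of either list past the interaction test.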

How the data were processed

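Total RNA from male rhesus macaque hippocampus was hybridised to Affymetrix rhesus arrays in duplicate for each animal, and the authors summarised the arrays with RMA, per the submitters' processing notes. The deposited values are log2 by their range (maximum 14.49); centring beyond RMA, the software version and the origin of the duplicates were not stated in the labels. Both arrays of an animal were averaged. Of 52865 probe sets 158 array controls and reporters were left out. Gene symbols came from the platform's annotation: 24956 tested probe sets had 1 symbol, 361 several and 27390 none, and 24629 of 24969 one-symbol probe sets matched the RefSeq gene table. A gene was represented by its brightest one-symbol probe set over the 12 animals. The group difference was tested in R 4.3.3 by limma 3.58.1, fitting 2 group means over 12 animals with moderated variances, and p-values were Benjamini-Hochberg adjusted over 52707 probe sets at 0.05. The treated contrast and the interaction came from 4 group means over 18 animals. Single values were compared by exact permutation over animals. The fit was tested on simulated data.

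The comparison, the gene lists and the rule for names were chosen with earlier results of these data known. Named genes are the 12 largest called rises and falls whose higher group mean reached the median level of 5.64. Also named are the 5 called genes most variable over SIVE animals. From each list came called members among the 4 with the smallest adjusted p, and defining or contrasting members chosen after their values were seen. Replicate numbers 5, 6 and 7 occur in both groups but did not pair the animals, with deviation correlations of -0.06, -0.37 and -0.23. Alternatives were other normalization, filters, variance models, age, replicate block, duplicates as arrays, other probe set rules and leaving out each animal. Promoter sequences were not analysed here.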

Additional observations from a re-analysis of the deposited data

Results flagged for a closer look

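Over 178 groups of values checked (SIVE and control separately), 18 had 1 animal far from the rest of its group by Dixon's test, 4 in SIVE and 14 in controls, and chance gives about 1 in 20. Control 5 was that animal in 6. It lay at -55.69 on the first principal component, where the next control was at -28.14, and at 59.22 on the second, where the next was at -7.88. Its mean over the 5 T cell genes was 5.50 against 5.18 in the next control. On viral probe sets it was the highest control at 3.99 for segment 2, 3.28 for segment 4 and 4.25 for segment 9, with the next controls at 3.49, 2.93 and 3.51. The segment 9 value was still far below the lowest SIVE value of 7.53. Among the genes that set Control 5 apart most from the other controls were USP14, at 3.80 against 3.98 to 9.62, OLAH, at 3.57 against 4.34 to 6.97, and ACTL9, at 6.40 against 4.71 to 4.94.

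SIVE 8 was low for IFIT3, at 12.05 with the next animal at 12.40, and for HERC6, at 8.68 with the next at 9.82. SIVE 7 was low for IGSF1, at 6.84 with the next at 7.32, and high for the mean of the chemokine list, at 7.09 with the next at 6.68. Control 4 was low for DUSP1, at 8.05 with the next at 9.42, and for NR4A1, at 6.63 with the next at 7.15. Control 7 was low for IFIT3, at 8.10 with the next at 8.44, and for the red blood cell list, at 4.83 with the next at 5.06. It was high for TNNT1, at 9.08 with the next at 8.23, and for the inhibitory neuron list, at 8.54 with the next at 8.09. Control 6 was high for the cholesterol synthesis list, at 8.99 with the next at 8.74. Control 1 was high for the 3′ minus 5′ signal, at 0.44 with the next control at 0.31.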

How the results depend on the processing

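In the untreated comparison rises outnumbered falls under each alternative, but the size of the counts depended on how animals entered the fit. Against 2249 probe sets and 922 genes called, the replicate block (which does not reflect a shared source) gave 277 probe sets, 272 higher and 5 lower, and 121 genes. Treating the 24 arrays as values with animal as a random block gave 4238 and 1769. A 2-fold minimum left 517 probe sets. Leaving out each animal in turn gave 1517 to 2531 probe sets and 633 to 1004 genes. In the treated animals 555 probe sets were called, 205 without the 3 of high 3′ signal (an alternative chosen after seeing the data) and 355 to 1661 with each animal left out in turn, with falls outnumbering rises, at 984 to 677, without Control 5. The interaction had 0 calls in each of these fits. The group difference in 3′ minus 5′ signal was -0.054 to 0.013 and that in age -1.30 to -0.39 years over the same omissions. TRIM22 turned to 0.72 with its probe sets averaged and 2.39 at its most variable one. Small differences that did not pass also changed sign: P2RY12 to 0.17, CX3CR1 to 0.11, DDX60 to -0.040 and CD68 to -0.12 under the replicate block, GBP2 to -0.014 with quantile normalization, IFIT2 to -0.014 and CD68 to -0.032 with the first duplicate only, and DDX60 to -0.0080 and a segment 6 probe set to -0.049 with the second only. With each animal left out in turn GBP2 ran from -0.0054 to 0.072, DDX60 from -0.0053 to 0.091 and CD68 from -0.013 to 0.10. The cause of these changes was not tested, apart from the animals or degrees of freedom each setting removes or adds.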

Other observations

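Gene families grouped by symbol, chosen after their values were seen and given without a test, also held genes that passed. Over all genes 4.6% were higher and 1.92% lower. Some members were already counted in the lists above. PARP9, PARP12 and PARP14 are among the interferon effectors, and S100A6 and S100A10 among the reactive astrocyte genes. Of 12 measured PARP genes, which attach ADP-ribose to proteins, 6 were higher, among them PARP12 by 2.30 ± 0.14. Of 5 GIMAP genes, small GTPases of lymphocytes and endothelium, 4 were higher, led by GIMAP2 at 1.73 and GIMAP6 at 1.69. Of 4 butyrophilin genes 3 were higher, BTN3A3 by 2.35. Of 9 annexin genes 2 were higher, ANXA1 by 1.30 and ANXA2 by 1.22, and of 12 S100A genes 4, S100A11 by 1.22. Of 43 histone genes 7 were higher, H4C11 by 1.48 and H4C8 by 1.37, although histone copies share sequence.

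On the lower side, all 3 measured chains of collagen IX fell, COL9A1 by 0.61, COL9A2 by 0.44 and COL9A3 by 0.42. Of 12 carbonic anhydrase family genes 3 were lower, CA10, CA11 at -0.61 and CA14 at -0.57. HES6 fell beside HES5, by 0.62, and SOX18 fell by 0.44.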
